A study of Mus musculus with 2 samples.

Results

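The 8 genes described here carry cholesterol out of cells, into cells and between the membranes within them. They are the apolipoprotein genes Apoe and Apoc1, the efflux transporter genes Abca1 and Abcg1, the receptor gene Lrp1, the lysosomal genes Npc1 and Npc2, and the esterification gene Soat1. They were taken by symbol from a list of names, and each matched 1 of the 32285 genes in the count matrices. Cells from the brains of 12-week-old mice were freed of myelin on Percoll, sorted for the leukocyte surface protein CD45, marked per mouse with oligonucleotide tags and sequenced from the 3′ end as 1 pooled library. The 4 control mice were Cre-negative littermates with floxed alleles, Arpc4 fl/fl. The 4 Arpc4ΔCx3cr1 mice carried the same floxed alleles and the transgene Tg(Cx3cr1-Cre), which deletes Arpc4, a subunit of the Arp2/3 complex that branches actin filaments. The Cx3cr1 promoter is active in microglia and also in other macrophages and in monocytes, so the deletion was not limited to microglia. The control mice lacked Cre, so the presence of Cre and the loss of Arpc4 cannot be told apart in these 8 mice. The question addressed is how genes of cholesterol handling differed between the genotypes, in microglia and in the other CD45+ cells.

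Cholesterol in the brain is made locally and moves between cells on lipoprotein particles built around ApoE, which astrocytes secrete and microglia also make. A cell takes the particles up through receptors such as LRP1, frees the cholesterol in its lysosomes, and then stores it as esters or exports it through ABC transporters. Microglia that engulf myelin or debris are known for raising parts of this system, Apoe among them.

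Counts are UMIs, each standing for 1 captured transcript molecule. The mice gave 1257 to 2831 cells each and between 5251527 gene UMIs in control mouse 1 and 12878691 in Arpc4ΔCx3cr1 mouse 3. None of the 19864 cell barcodes was shared between mice. Cells were named from clusters by marker genes, and 7797 control and 9237 Arpc4ΔCx3cr1 cells were called microglia-like. The 15 microglia markers together made up 36173 to 36715 CPM (UMIs scaled to the total gene UMIs of the same cells) in microglia-like cells of control mice and 22248 to 25519 CPM in those of Arpc4ΔCx3cr1 mice. C1qa was higher and 13 of the other markers were lower, and none was at 0. RNA outside cells, read from barcodes of at most 100 gene UMIs, held these markers at 30426 CPM, above the Arpc4ΔCx3cr1 range. Their presence alone therefore does not show which cells made them. Arpc4 itself, the targeted gene, stood at 236, 216, 225 and 222 CPM in control mice 1 to 4 and at 153, 148, 143 and 138 CPM in Arpc4ΔCx3cr1 mice 1 to 4. It fell by 0.63 (SE 0.05) on the log2 scale, and the groups did not overlap. A 3′ count does not show which exons a transcript held.

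Arpc4ΔCx3cr1 mouse 1 stood apart from the other 7 mice. Its microglia-like cells held 1444 CPM of Xist, the transcript of the inactive X chromosome, against 3.54 to 13.8 CPM in the others. They held 3.80 CPM of the Y-linked gene Ddx3y, against 69.3 to 81.3 CPM in the others. The study describes 1 female Arpc4ΔCx3cr1 mouse that was left out of its own analysis, and the labels do not say which. Most of the cells of this mouse, 1504 of 2180, fell in a microglial cluster of their own that was led by Xist and Fn1. Values are therefore given with this mouse and, beside each called member, without it. In addition, 2 of the clusters named microglia-like, with 2933 cells, had a marker of monocytes (Fn1) or 4 hemoglobin genes among their leading genes and no microglia marker there. Of the 16205 hemoglobin UMIs in microglia-like cells, 98.3% lay in 3 cells of Arpc4ΔCx3cr1 mouse 1. Results without these 2 clusters, an alternative chosen after seeing the data, are given where they change a call. Arpc4ΔCx3cr1 mice gave 1625 of 1628 cells of the Fn1 cluster and 1269 of 1305 of the other. Apoe was among the leading genes of both, and Ms4a7 among those of the other. Leaving them out cut Arpc4ΔCx3cr1 mouse 1 from 2180 to 390 cells and mice 2 to 4 to 1909, 2134 and 1910 cells. This alternative thus also takes out Arpc4ΔCx3cr1 cells that were high in Apoe.

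In microglia-like cells, 7 of the 8 genes differed between genotypes. Apoe, Apoc1, Npc2 and Soat1 were higher in Arpc4ΔCx3cr1 mice, and Abcg1, Lrp1 and Npc1 were lower. Abca1 was not called. A gene was called when its adjusted p was under 0.05 in edgeR's quasi-likelihood test on UMIs summed per mouse, with Benjamini-Hochberg adjustment over all genes tested. Of 12728 genes tested, 46.0% were called, 2909 (22.9%) higher and 2951 (23.2%) lower, so a call alone did not set the 8 genes apart. Without Arpc4ΔCx3cr1 mouse 1 the same 7 were called (49.5% of all genes), and without the 2 clusters of mixed markers 6 were (39.5%), Apoc1 being lost. In 6 of the 8 genes the 4 mice of one genotype lay wholly above the other 4, as they did in 44.1% of all genes tested. The median log2 fold change was 0.50 over the 8 genes and -0.0066 over all genes tested, and the median absolute log2 fold change was 0.91 against 0.26. A change of more than 1 on the log2 scale was called in 4 of the 8 genes and in 12.3% of all genes. The 8 genes were chosen with earlier results of these data known, so these comparisons with all genes only describe them.

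**Figure D1:**
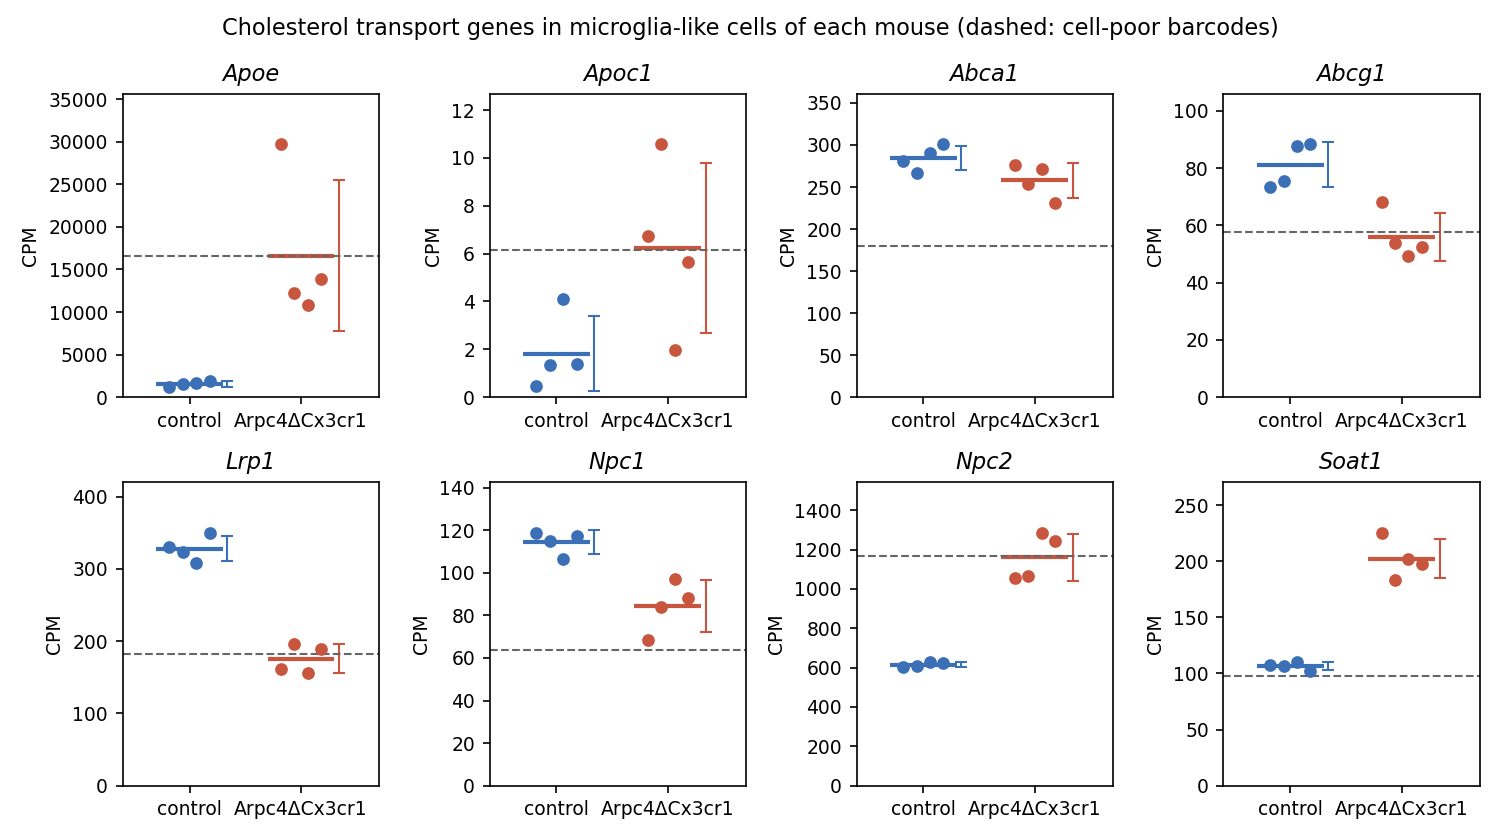
Each panel plots 1 gene in the summed microglia-like cells of each mouse (CPM, axis from 0), control in blue and Arpc4ΔCx3cr1 in red, with the mean as a horizontal line and the SD (n = 4) as a bar beside it. The dashed line is the level in cell-poor barcodes of the pooled library, and for Apoe Arpc4ΔCx3cr1 mouse 1 lay above that line (16539), the other 3 below it at 10776 CPM or more, and all control mice far below it, at 1149 to 1907 CPM.

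Apoe, the main apolipoprotein of brain lipoproteins, stood at 1123, 1438, 1611 and 1821 CPM in control mice 1 to 4. It stood at 31014, 12430, 11305 and 14480 CPM in Arpc4ΔCx3cr1 mice 1 to 4. All Arpc4ΔCx3cr1 mice lay far above all control mice, and mouse 1 was the highest of them. With 4 of 4 mice above the control range, the log2 fold change was 3.53 (SE 0.32, adjusted p = 7.91e-06, edgeR with Benjamini-Hochberg adjustment). Without Arpc4ΔCx3cr1 mouse 1 it was 3.09. The lowest value among the 22 alternatives was 2.64, also called. When RNA of the cell-poor barcodes was subtracted from each mouse at 1%, 5% and 10% of its UMIs, the log2 fold change was 3.68, 4.56 and 7.93, because little was left in the control mice.

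Apoc1, a small apolipoprotein that modulates lipoprotein enzymes, was scarce, with 65 UMIs in all microglia-like cells of control mice and 267 in those of Arpc4ΔCx3cr1 mice. Its level was 0.47, 1.29, 3.97 and 1.31 CPM in control mice 1 to 4 and 7.01, 10.8, 2.07 and 5.90 CPM in Arpc4ΔCx3cr1 mice 1 to 4. The groups overlapped, since Arpc4ΔCx3cr1 mouse 3 was below control mouse 3. Its log2 fold change was 1.74 (SE 0.54, adjusted p = 0.0228, edgeR with Benjamini-Hochberg adjustment), and it was 1.69 without Arpc4ΔCx3cr1 mouse 1. The call was lost without control mouse 1, 2 or 4 (log2 fold change 1.55, 1.57 and 1.58), without Arpc4ΔCx3cr1 mouse 2 (1.39) without the 2 clusters of mixed markers (1.25), at a coarser clustering (1.42) and in a replicate block design (1.68).

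Apoe (ENSMUSG00000002985) lies at chr7:19696109-19699188 of mm10 and Apoc1 (ENSMUSG00000040564) at chr7:19689481-19692660, both on the minus strand, next to further apolipoprotein genes. Among those, the 4 control mice held 59 UMIs of Apoc2, a cofactor of lipoprotein lipase, and the 4 Arpc4ΔCx3cr1 mice 762. Apoc2 stood at 1.40, 1.89, 1.82 and 1.72 CPM in control mice 1 to 4 and at 46.3, 8.24, 7.48 and 10.9 CPM in Arpc4ΔCx3cr1 mice 1 to 4. Every Arpc4ΔCx3cr1 mouse exceeded every control mouse, and mouse 1 was again far the highest. Its log2 fold change was 3.37 (SE 0.69, adjusted p = 0.0023, edgeR with Benjamini-Hochberg adjustment) and 2.34 without Arpc4ΔCx3cr1 mouse 1. Apoc4, between Apoc2 and Apoc1, had 7 UMIs in control mice and 109 in Arpc4ΔCx3cr1 mice and was too scarce to be tested.

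Of 28 annotated genes that reach within 200000 bases of Apoe, 15 were tested, 6 were called higher and 1 lower, with a median log2 fold change of 0.08. With 46.0% of all genes called, the number of calls did not set this stretch apart. Besides Apoe, Apoc1 and Apoc2, the higher genes were Bcl3 (log2 fold change 1.77) and Relb (0.72), which belong to the NF-kB system, and Trappc6a (0.38). The lower one, Clptm1, fell by 0.21 on the log2 scale, a call that was lost without the 2 clusters of mixed markers (-0.13). These genes and Apoc2 are named for their position, after their values were seen.

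Abca1, which loads cholesterol and phospholipid onto lipid-poor apolipoproteins, was at 274, 257, 281 and 287 CPM in control mice 1 to 4. In Arpc4ΔCx3cr1 mice 1 to 4 it was at 288, 259, 285 and 241 CPM. The groups overlapped throughout, and mouse 4 was the lowest of all 8. No difference was called (log2 fold change -0.03, SE 0.07, adjusted p = 0.705, edgeR with Benjamini-Hochberg adjustment), and leaving out 1 mouse at a time gave -0.071 to 0.016, the positive value without Arpc4ΔCx3cr1 mouse 4.

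Abcg1, which passes cholesterol on to particles that already hold lipid, was at 71.7, 72.8, 84.8 and 84.3 CPM in control mice 1 to 4 and at 71.0, 55.0, 51.6 and 54.6 CPM in Arpc4ΔCx3cr1 mice 1 to 4. All Arpc4ΔCx3cr1 mice were below all control mice, but mouse 1 only just so. Abcg1 fell by 0.44 (SE 0.10) on the log2 scale, with an adjusted p of 0.0049 (edgeR with Benjamini-Hochberg adjustment), and the log2 fold change was -0.55 without Arpc4ΔCx3cr1 mouse 1.

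Lrp1, an endocytic receptor for ApoE-bearing particles and many other ligands, was at 323, 311, 298 and 334 CPM in control mice 1 to 4. It was at 169, 200, 164 and 198 CPM in Arpc4ΔCx3cr1 mice 1 to 4. The groups were far apart and neither held a mouse that stood out. Lrp1 fell by 0.79 (SE 0.08) on the log2 scale, in 4 of 4 mice, with an adjusted p of 1.19e-05 (edgeR with Benjamini-Hochberg adjustment), and the log2 fold change was -0.75 without Arpc4ΔCx3cr1 mouse 1.

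NPC2 and NPC1 act in sequence in the lysosome, where NPC2 picks up freed cholesterol and hands it to NPC1 in the membrane. Npc2 was at 588, 584, 606 and 596 CPM in control mice 1 to 4 and at 1099, 1088, 1350 and 1297 CPM in Arpc4ΔCx3cr1 mice 1 to 4. Npc1 (ENSMUSG00000024413) was at 116, 111, 103 and 112 CPM in control mice 1 to 4 and at 71.2, 85.8, 102 and 92.3 CPM in Arpc4ΔCx3cr1 mice 1 to 4. Npc2 was thus higher in all Arpc4ΔCx3cr1 mice by a wide gap, whereas Npc1 was lower in all of them, with mouse 3 close to the lowest control mouse. For Npc2 the log2 fold change was 1.03 (SE 0.08, adjusted p = 1.78e-06, edgeR with Benjamini-Hochberg adjustment) and 1.07 without Arpc4ΔCx3cr1 mouse 1. Npc1 fell by 0.33 (SE 0.10) on the log2 scale, with an adjusted p of 0.0163 (edgeR with Benjamini-Hochberg adjustment), and without Arpc4ΔCx3cr1 mouse 1 the log2 fold change was -0.23.

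Soat1, which esterifies free cholesterol for storage in lipid droplets, was at 105, 102, 107 and 97.7 CPM in control mice 1 to 4 and at 235, 187, 212 and 207 CPM in Arpc4ΔCx3cr1 mice 1 to 4. The lowest Arpc4ΔCx3cr1 mouse was well above the highest control mouse. Soat1 thus rose in 4 of 4 mice, by a log2 fold change of 1.03 (SE 0.07, adjusted p = 1.19e-06, edgeR with Benjamini-Hochberg adjustment), and of 0.98 without Arpc4ΔCx3cr1 mouse 1.

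The other members lie apart from each other in mm10: Abca1 (ENSMUSG00000015243) at chr4:53030787-53159895, Abcg1 (ENSMUSG00000024030) at chr17:31057675-31117988, Lrp1 (ENSMUSG00000040249) at chr10:127538161-127621148, Npc2 (ENSMUSG00000021242) at chr12:84754562-84773152 and Soat1 (ENSMUSG00000026600) at chr1:156424525-156474331. No member overlaps another annotated gene on its own strand. Promoter entries were found for 5 of the 8 members, and not for Apoc1, Abcg1 and Npc1. Each entry spans 250 bases before to 50 bases after a transcript start, from RefSeq on GRCm38.p6, the assembly that mm10 is built on. The promoters of the 3 genes with the largest rises among these 5, and of Lrp1, which fell, are shown to set side by side the sequence around the start of genes that moved together. Capitals mark matches on either strand to the GC box GGGCGG, the ETS core GGAAGT and the E-box CACGTG, motifs that do not overlap one another here.
Apoe, chr7:19699139-19699438, minus strand: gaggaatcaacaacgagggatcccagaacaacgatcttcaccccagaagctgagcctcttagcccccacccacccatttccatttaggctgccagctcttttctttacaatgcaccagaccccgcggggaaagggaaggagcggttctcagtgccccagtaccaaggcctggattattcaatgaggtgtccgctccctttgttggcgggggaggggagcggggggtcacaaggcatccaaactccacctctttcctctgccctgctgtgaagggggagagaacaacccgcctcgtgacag
Npc2, chr12:84773063-84773362, minus strand: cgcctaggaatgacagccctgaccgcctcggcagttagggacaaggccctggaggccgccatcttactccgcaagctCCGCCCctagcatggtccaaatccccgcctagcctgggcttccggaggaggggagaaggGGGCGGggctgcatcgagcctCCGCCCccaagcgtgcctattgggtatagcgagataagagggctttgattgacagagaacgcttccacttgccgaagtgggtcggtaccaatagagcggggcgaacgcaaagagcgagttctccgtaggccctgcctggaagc
Soat1, chr1:156474279-156474578, minus strand: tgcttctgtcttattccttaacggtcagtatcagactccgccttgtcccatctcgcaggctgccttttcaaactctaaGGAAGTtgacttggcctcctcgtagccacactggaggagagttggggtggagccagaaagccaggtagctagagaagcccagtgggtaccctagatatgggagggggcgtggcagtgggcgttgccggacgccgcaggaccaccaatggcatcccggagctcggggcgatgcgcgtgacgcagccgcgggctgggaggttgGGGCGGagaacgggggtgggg
Lrp1, chr10:127621099-127621398, minus strand: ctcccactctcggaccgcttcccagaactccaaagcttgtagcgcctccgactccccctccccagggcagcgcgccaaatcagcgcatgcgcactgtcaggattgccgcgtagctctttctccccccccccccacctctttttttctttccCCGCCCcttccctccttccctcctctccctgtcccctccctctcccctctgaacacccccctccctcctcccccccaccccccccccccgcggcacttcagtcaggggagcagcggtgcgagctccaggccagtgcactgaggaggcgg
Npc2 held 3 GC boxes, Soat1 1 GC box and 1 ETS core, Lrp1 1 GC box, and Apoe no match to the 3 motifs at this or at its other 2 listed starts. Abca1, the member that was not called, held 2 GC boxes and 1 E-box. Among 32851 promoters of the same length, 35.7% held a GC box, 23.8% an ETS core and 7.15% an E-box, so the matches are described and nothing is drawn from them about binding.

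The rise of Apoe was spread over most microglia-like cells and was not confined to a few. After each cell was thinned to 2000 UMIs, the median microglia-like cell held 1 UMI of Apoe in each of the 4 control mice. In Arpc4ΔCx3cr1 mice 1 to 4 the median cell held 52, 11, 14 and 16 UMIs. A median CAM-like cell, a macrophage of the brain's borders, held 61 to 72 UMIs in control mice. The share of microglia-like cells with 20 or more Apoe UMIs was 1.24% to 3.16% in control mice and 84.1%, 35.6%, 35.6% and 45.6% in Arpc4ΔCx3cr1 mice 1 to 4. The 90th percentile of control cells was 4 UMIs, while the 10th percentile in Arpc4ΔCx3cr1 mice 1 to 4 was 14, 1, 3 and 3 UMIs. For Npc2 the median cell moved from 1 UMI in each control mouse to 2 UMIs in each Arpc4ΔCx3cr1 mouse.

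At this equal depth, cells with at least 1 UMI of a gene were counted in microglia-like and in T cell-like cells. The median before thinning was 3903 UMIs in control and 4364 in Arpc4ΔCx3cr1 microglia-like cells. In T cell-like cells it was 4987 and 4127 UMIs (129 and 168 cells). Shares in T cell-like cells may include RNA that they made, so they are a comparison and not a measure of outside RNA. In control mice they held 61.4 CPM of Abcg1 and 426 CPM of Npc2. B cell-like cells held 24.9 and 158 CPM (2 mice), and granulocyte-like cells 12.1 and 121 CPM (1 mouse). Apoe was seen in 71.0% ± 1.16 (SD, n = 4) of control and 97.7% ± 1.87 of Arpc4ΔCx3cr1 microglia-like cells, against 66.7% and 78.0% of T cell-like cells. The control share of microglia-like cells was thus close to the share in T cell-like cells, and the median cell of both classes held 1 UMI in each control mouse. Npc2 was seen in 68.6% ± 0.93 and 85.7% ± 2.06 of microglia-like cells, against 55.0% and 50% of T cell-like cells. Soat1 was seen in 18.4% ± 0.74 and 31.7% ± 2.19, against 10.9% and 13.1%. Lrp1 was seen in 45.6% ± 2.88 and 26.9% ± 2.26, against 11.6% and 7.14%, so in both genotypes it stayed above the share in T cell-like cells. Npc1 went from 20.1% ± 0.90 to 14.7% ± 1.60, against 9.30% and 7.14%. Abcg1 went from 14.4% ± 0.97 to 9.81% ± 1.89, against 7.75% and 8.33%, which placed the Arpc4ΔCx3cr1 cells near the level of the T cell-like cells. Apoc1 was seen in 0.245% and 0.850% of microglia-like cells and in none of the T cell-like cells. That allows shares there of up to 2.33% (control) and 1.79%, so at this depth it could not be set above the T cell-like cells. In these 7 genes the 4 mice of one genotype lay above the other 4, with an exact two-sided permutation p of 0.0286 each, the smallest that 4 against 4 mice allow, not adjusted for the 8 genes compared. The same count was not made for the shares of all genes, of which 44.1% were separated by level. The separation was lost at 1000 UMIs for Apoc1 and Abcg1 and without thinning for Abcg1 and Npc1. Abca1 went from 39.0% ± 1.96 to 35.7% ± 1.40, against 16.3% and 11.3% of T cell-like cells (exact permutation p = 0.0571).

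**Figure D2:**
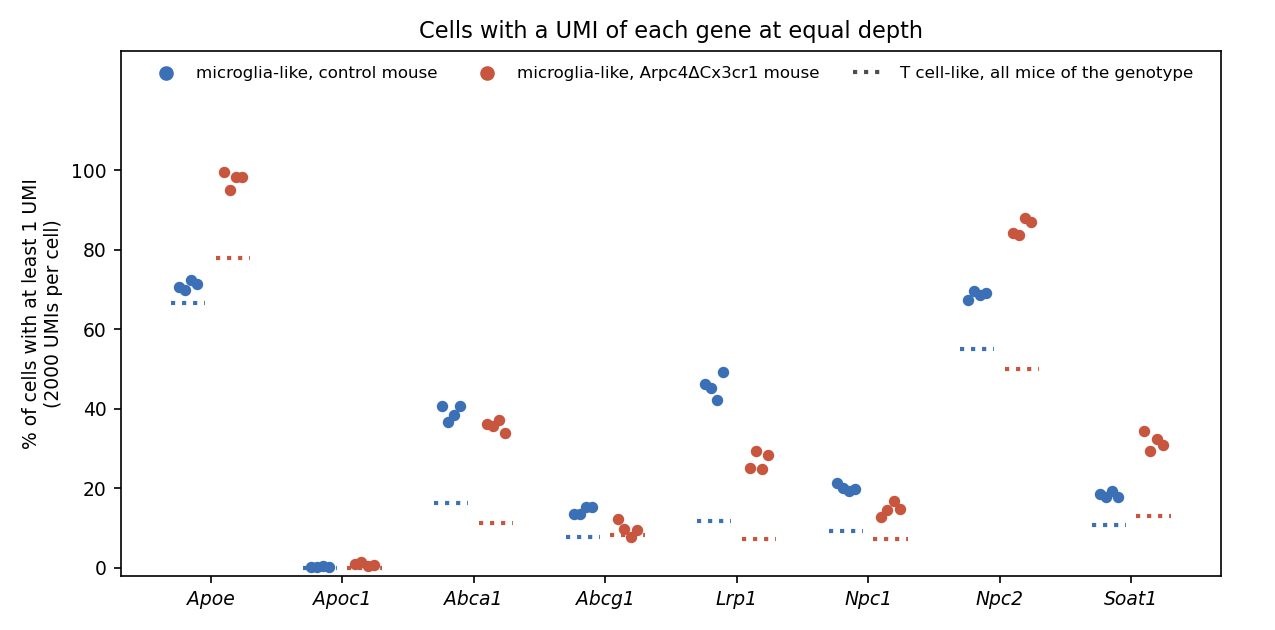
The share of cells with at least 1 UMI (%) is plotted for each gene at 2000 UMIs per cell, 1 point per mouse for microglia-like cells, with the share in T cell-like cells of the genotype as a dotted line. Control points for Apoe lie just above the dotted line at 66.7%, and those for Lrp1 lie far above theirs at 11.6%.

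The pooled library held 1769098 barcodes with at most 100 gene UMIs, which carry the RNA found outside cells. Their level was 16539 CPM for Apoe, 1165 for Npc2, 182 for Lrp1, 179 for Abca1, 97.4 for Soat1, 63.7 for Npc1, 57.5 for Abcg1 and 6.13 for Apoc1. With other limits on these barcodes the level ran from 15616 to 17597 CPM for Apoe, 1137 to 1194 for Npc2, 148 to 211 for Lrp1, 157 to 200 for Abca1, 80.0 to 113 for Soat1 and 47.2 to 68.3 for Abcg1. On the same scale, control microglia-like cells held 0.094 times this level of Apoe and 0.53 times that of Npc2, and Arpc4ΔCx3cr1 cells held 1.01 and 1.00 times. For Apoe that mean rested on Arpc4ΔCx3cr1 mouse 1, at 179.8% of the outside level, while mice 2 to 4 were at 73.7%, 65.2% and 83.8%. Soat1 moved from 1.09 to 2.08 times and Lrp1 from 1.80 to 0.97 times the level outside cells. The outside RNA was thus rich in Apoe and Npc2, as were the Arpc4ΔCx3cr1 cells, and it is shared by all mice because they were processed as 1 pool. Its part in the level of each mouse was not tested beyond the subtractions given for Apoe, under which the other called members kept their direction and their call.

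Among the other classes, CAM-like cells held the most Apoe, at 33546 ± 3517 CPM in control mice (SD, n = 4, 287 cells) and 29908 ± 7436 CPM in Arpc4ΔCx3cr1 mice (127 cells). Next in control mice were proliferating cells at 4363 ± 6664 CPM (3 mice), T cell-like cells at 2053 ± 1943, microglia-like cells at 1554 ± 319, and monocyte- and dendritic-like cells at 1373 ± 548 CPM. Below CAM-like cells these neighbours in the order overlapped from mouse to mouse. In Arpc4ΔCx3cr1 mice microglia-like cells moved to second place at 16637 ± 8819 CPM, and their range of 10776 to 29731 CPM met the 20403 to 36638 CPM of CAM-like cells. That overlap rested on mouse 1 alone, mice 2 to 4 being at 12184, 10776 and 13858 CPM. Microglia-like cells were followed by proliferating cells at 7530 ± 1025, T cell-like cells at 5836 ± 2930 and monocyte- and dendritic-like cells at 4389 ± 2648 CPM. B cell-like cells held 728 CPM in 2 control mice and 2454 CPM in 1 Arpc4ΔCx3cr1 mouse, and granulocyte-like cells 1024 and 1046 CPM in 1 mouse each. Clusters of few UMIs that were given no name held 2064 ± 670 and 13082 ± 6681 CPM.

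For the other members, CAM-like cells of control mice held less Lrp1 (167 ± 38.7 CPM), Npc1 (54.5 ± 8.12) and Abcg1 (45.7 ± 13.2) than microglia-like cells (328 ± 17.4, 114 ± 5.59 and 81.2 ± 7.87), with no overlap between the 4 mice. They held more Npc2 (1065 ± 42.1 against 615 ± 12.6 CPM), while Abca1 (321 ± 55.2 against 285 ± 14.6) and Soat1 (119 ± 18.3 against 107 ± 3.22) overlapped from mouse to mouse. In monocyte- and dendritic-like cells Abca1 was low, at 16.3 ± 14.8 CPM in control and 48.1 ± 48.1 CPM in Arpc4ΔCx3cr1 mice. These are levels in clusters formed from the same cells and are given with no test.

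In CAM-like cells, which can also express the Cre, Apoe stood at 37478, 36850, 45604 and 35662 CPM in control mice 1 to 4 and at 46166, 30683, 24669 and 38853 CPM in Arpc4ΔCx3cr1 mice 1 to 4 (scaled by edgeR). The groups overlapped, and Arpc4ΔCx3cr1 mouse 1 was the highest of all 8. None of the 6 members tested was called (3533 genes tested, 36 or 1.02% called by edgeR, 376 at an unadjusted p under 0.05), and Apoc1 and Abcg1 were too scarce to be tested. The number of genes called depended on single mice: it was 12, 10 or 17 without control mouse 1, 3 or 4, and 59 or 64 without Arpc4ΔCx3cr1 mouse 2 or 4. Log2 fold changes were -0.15 (SE 0.21) for Apoe, 0.16 (SE 0.20) for Npc2, 0.50 (SE 0.23) for Soat1, -0.69 (SE 0.26) for Lrp1, 0.56 (SE 0.30) for Npc1 and -0.31 (SE 0.26) for Abca1. At a coarser clustering 796 genes were called, Lrp1 (-0.54) and Soat1 (0.56) among them, and Apoe was at 0.11. The class then held 152 to 432 cells per Arpc4ΔCx3cr1 mouse, against 22 to 47 before, and 49 to 121 per control mouse, against 49 to 111, with Ms4a7 among its leading genes. Its makeup thus differed between genotypes, and these values do not compare like cells.

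The difference between the 2 classes was tested as an interaction of genotype and class. Each mouse entered with 1 sum per class, and the fit did not pair the 2 sums of a mouse. In it 2 of the 8 members and 4.81% of 11105 genes were called, 534 genes (351 without control mouse 4), with a median over all genes of 0.14. With the mouse as a block, which pairs the 2 sums, 665 genes and the same 2 members were called. The genotype difference was larger in microglia-like than in CAM-like cells by 3.76 on the log2 scale for Apoe (SE 0.39, adjusted p = 1.69e-06) and by 0.94 for Npc2 (SE 0.20, adjusted p = 0.0052), both from edgeR with Benjamini-Hochberg adjustment. Without Arpc4ΔCx3cr1 mouse 1 these were 3.54 and 1.17, both called. In edgeR no such difference was called for Soat1 (0.61), Npc1 (-0.80), Abca1 (0.39), Abcg1 (-0.42), Lrp1 (-0.02) or Apoc1 (0.50). Npc1 was called at the coarser clustering (-0.66), with the makeup of CAM-like cells given above, and Abca1 without Arpc4ΔCx3cr1 mouse 4 (0.79). The value of Apoc1 turned negative without control mouse 2 (-0.11) or Arpc4ΔCx3cr1 mouse 2 (-0.19), and that of Abcg1 positive without Arpc4ΔCx3cr1 mouse 1 (0.071). That of Lrp1 was positive without control mouse 1 or 4 (0.12 and 0.0035) or Arpc4ΔCx3cr1 mouse 1 (0.29).

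**Figure D3:**
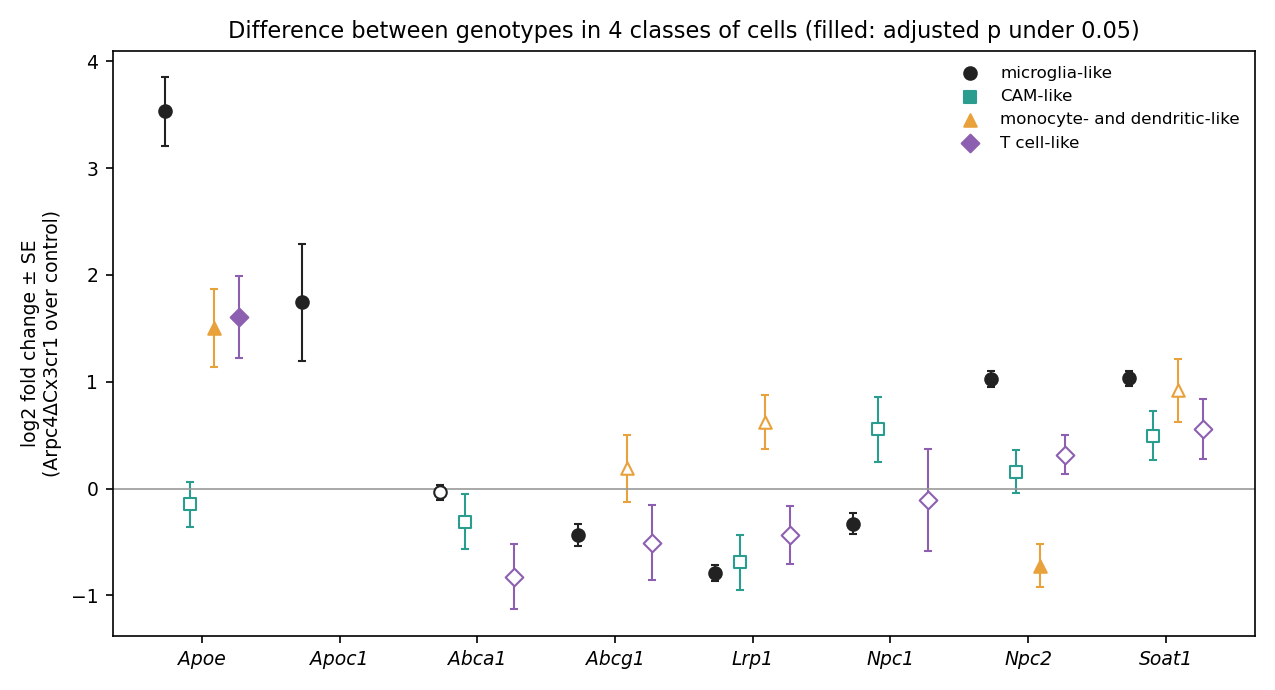
The log2 fold change between genotypes (with SE, edgeR) is plotted for each gene in microglia-like, CAM-like, monocyte- and dendritic-like and T cell-like cells, filled where the adjusted p is under 0.05 and left out where a gene was too scarce. Apoe stands at 3.53 in microglia-like cells and at -0.15 in CAM-like cells.

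Monocyte- and dendritic-like cells (114 control and 232 Arpc4ΔCx3cr1 cells) held Apoe at 2552, 1220, 1885 and 1069 CPM in control mice 1 to 4 and at 3457, 8653, 4961 and 2019 CPM in Arpc4ΔCx3cr1 mice 1 to 4. Arpc4ΔCx3cr1 mouse 4 lay within the control range and the others above it. Apoe was called higher (log2 fold change 1.50, SE 0.37, adjusted p = 0.0254) and Npc2 lower (-0.72, SE 0.20, adjusted p = 0.0447), 2 of 5 members tested against 7.34% of 3079 genes (edgeR with Benjamini-Hochberg adjustment). Arpc4ΔCx3cr1 mouse 2, the highest for Apoe, also held 8578 CPM of the 15 microglia markers in this class, against 1975 to 4623 CPM in control mice, and 80.2% of its Apoe UMIs lay in the tenth of cells with the most. How much of the Apoe came from microglial RNA in the same droplets was not tested. Npc2 moved the opposite way from microglia-like cells, although that difference was not tested. Both calls were fragile. Apoe was at 1.60 and still called without Arpc4ΔCx3cr1 mouse 1, but its call was lost without control mouse 2, 3 or 4 or Arpc4ΔCx3cr1 mouse 3 (log2 fold change 1.36, 1.55, 1.31 and 1.48). The call of Npc2 was lost without control mouse 1, 2 or 3 (-0.50, -0.76 and -0.81) or Arpc4ΔCx3cr1 mouse 1, 2, 3 or 4 (-0.79, -0.69, -0.71 and -0.70). Soat1 was at 0.92, not called, and was called without Arpc4ΔCx3cr1 mouse 4 (1.05). Of all genes, 226 were called, but 123, 115 or 113 without control mouse 1, 2 or 4 and 107 without Arpc4ΔCx3cr1 mouse 3.

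T cell-like cells (133 control and 176 Arpc4ΔCx3cr1 cells) held Apoe at 5508, 1691, 1365 and 636 CPM in control mice 1 to 4 and at 10851, 3287, 4905 and 8203 CPM in Arpc4ΔCx3cr1 mice 1 to 4. Control mouse 1 lay above 2 of the Arpc4ΔCx3cr1 mice. Apoe was called higher (log2 fold change 1.61, SE 0.39, adjusted p = 0.0141), 1 of 7 members tested against 3.88% of 4204 genes (edgeR with Benjamini-Hochberg adjustment). Without Arpc4ΔCx3cr1 mouse 1, the highest of the 8, the value was 1.29 and still called. The call was lost without control mouse 2, 3 or 4 (1.48, 1.41 and 1.29), and the value was 2.45 without control mouse 1. Without control mouse 2 the number of genes called also fell, from 163 to 104. At 2000 UMIs per cell, the median T cell-like cell held 1 Apoe UMI in each control mouse and 2 in each Arpc4ΔCx3cr1 mouse. The tenth of cells with the most held 37.1% to 93.2% of the Apoe UMIs of a mouse. The same cells held 11742 to 13938 CPM of the 15 microglia markers in control and 7801 to 10116 CPM in Arpc4ΔCx3cr1 mice, against 30426 CPM outside cells. How much of their Apoe came from microglial RNA in the same droplets was not tested.

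Within microglia-like cells, a second clustering gave 12 clusters, numbered from 0 by size. Clusters 0, 3, 4 and 7 were almost wholly made of control cells, 1, 2, 5, 6, 8, 9 and 10 mainly of Arpc4ΔCx3cr1 cells, and 11 of both. In Arpc4ΔCx3cr1 mice Apoe was highest in cluster 6, which was led by Ms4a7, at 39037 ± 2057 CPM (SD, n = 4), then in cluster 10 (Cst7, Spp1) at 26141 ± 13803 and in cluster 5 at 23431 ± 5512 CPM (3 mice). It was at 13902 ± 7251 CPM in the interferon-responsive cluster 8 (Cxcl10, Rsad2), 13168 ± 3632 in cluster 2, 11606 ± 3379 in cluster 9, 9287 ± 3454 in cluster 1 and 7467 ± 2218 in cluster 11. Neighbours in this order overlapped from mouse to mouse, down to the step from cluster 11 to clusters 3 and 0 at 988 and 869 CPM (2 mice each), with clusters 4 and 7 at 2492 and 1911 CPM in 1 mouse each. Arpc4ΔCx3cr1 mouse 1 was the highest of its genotype in all of clusters 1, 2, 5, 6, 8 and 10, the 6 clusters in which it had at least 10 cells, so its excess was not limited to its own cluster.

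A few control cells fell in the same clusters and can be set beside them. In cluster 6 control mice 2 and 4 held 41594 and 32494 CPM of Apoe, within or near the 37478 to 41961 CPM of Arpc4ΔCx3cr1 mice. In cluster 9 the 3 control mice held 11439 ± 1591 CPM, as much as the 11606 CPM of Arpc4ΔCx3cr1 mice. In cluster 1 the 4 control mice held 5293 ± 1842 CPM, below 9287 ± 3454, with an overlap of mice. In cluster 8 the 3 control mice held 961 to 5105 CPM and the 4 Arpc4ΔCx3cr1 mice 8079 to 24504 CPM, with no overlap. In cluster 11 the 4 control mice held 1425 to 4874 CPM and 3 Arpc4ΔCx3cr1 mice 6055 to 10023 CPM, again with no overlap. The few Arpc4ΔCx3cr1 cells in clusters 0 and 3 (46 and 41 cells, of mice 2 and 3) held 869 and 988 CPM, beside 698 ± 86.9 and 1072 ± 211 CPM in control cells there, with mouse 2 in cluster 0 (1042 CPM) above all control mice. In clusters 4 and 7 mouse 2 alone had enough cells and, at 2492 and 1911 CPM, was above all 4 control mice (at most 1848 and 1552 CPM). In cluster 10 the 1 control mouse held 28038 CPM, within the 13835 to 45874 CPM of Arpc4ΔCx3cr1 mice. Clusters were formed from the same counts, so these levels are a description.

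**Figure D4:**
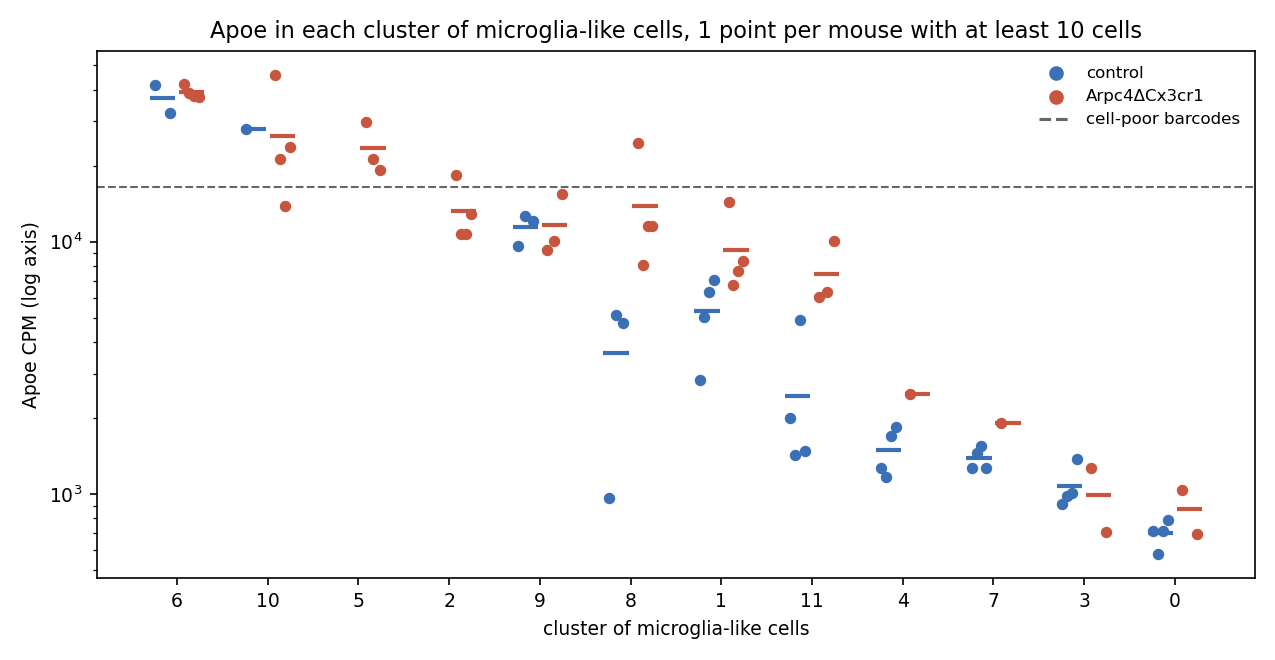
Apoe (CPM, log axis) is plotted in each cluster of microglia-like cells, ordered by mean, 1 point per mouse with at least 10 cells, control in blue and Arpc4ΔCx3cr1 in red, with means as lines and the level outside cells dashed. Points of both genotypes overlap in cluster 6, at 32494 to 41961 CPM, and lie apart in cluster 8, at 961 to 5105 CPM in control and 8079 to 24504 CPM in Arpc4ΔCx3cr1 mice.

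The members did not follow 1 order across these clusters. In Arpc4ΔCx3cr1 mice Npc2 was highest in cluster 10 (2132 ± 355 CPM) and cluster 2 (1578 ± 87.4), both led by Cst7, and lowest in cluster 0 (510 CPM). Lrp1 ran the other way, from 247 CPM in cluster 0 down to 119 ± 16.8 CPM in cluster 6. Soat1 ranged from 115 CPM in cluster 4 (1 mouse) to 251 ± 64.1 CPM in cluster 11, and neighbours in its order overlapped among clusters with at least 2 mice. In cluster 11, led by the immediate early and chemokine genes Egr1, Ccl3 and Ccl4, the efflux transporters stood apart between genotypes, a cluster chosen after its values were seen. There Abca1 was at 434 to 583 CPM in 4 control mice and at 142 to 227 CPM in 3 Arpc4ΔCx3cr1 mice, and Abcg1 at 163 to 225 and 38.3 to 47.5 CPM, from 101 and 125 cells. Both were also apart in cluster 3, with 2 Arpc4ΔCx3cr1 mice (Abca1 255 to 286 against 113 to 186 CPM, Abcg1 67.1 to 77.7 against 28.4 to 53.2 CPM). Elsewhere the Arpc4ΔCx3cr1 mean could be the higher one, with overlap, as for Abca1 in cluster 9 (265 and 356 CPM) and Abcg1 in cluster 6 (56.8 and 67.7 CPM).

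Across the 12 clusters, in cells of Arpc4ΔCx3cr1 mice averaged over mice, the genes most like Apoe by Pearson's r of log2 CPM were Cd72 (0.94), Milr1 (0.91), Cd74 (0.91), Cybb (0.91) and Gpr65 (0.91), out of 3698 compared. The points share 1 library and differ in depth, so no p is given. Among the members, r with Apoe was 0.74 for Npc2, 0.63 for Abcg1, 0.57 for Soat1, 0.49 for Apoc1, -0.07 for Abca1, -0.75 for Npc1 and -0.76 for Lrp1. The genes most like Apoc1 were Blvrb (0.76), Tnfaip8 (0.70), Trim35 (0.69), Sf3b2 (0.68) and Arl6ip4 (0.68), on few Apoc1 UMIs.

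Other genes of cholesterol handling were followed in 6 lists with 92 genes, of which 69 were tested in microglia-like cells, 30 were higher and 17 lower, with a median log2 fold change of 0.15 against -0.0066 over all genes tested. Over all genes tested 22.9% were higher and 23.2% lower, shares against which the counts of each list can be read. The lists too were chosen with earlier results of these data known, so their counts and medians are a description. The 23 genes that were too scarce are not counted as unchanged. Among 10 further apolipoproteins only Apoc2 was tested.

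Of 17 receptors and their partners tested (of 21), 6 were higher and 6 lower, with a median of 0.12. The scavenger receptor Cd36 (log2 fold change 3.51, from 1.83 to 19.9 CPM) and the sorting receptor Sorl1 (1.71, from 27.7 to 90.7 CPM) were higher. Stab1 (-1.10), Sort1 (-0.93) and Mylip (-0.63), a ubiquitin ligase, were lower. Counted over all cells of a mouse, the value of Cd36 was 1.27. Of 6 ABC transporters tested (of 7), 1 was higher and 3 were lower, with a median of -0.29. Abcb4, a phospholipid exporter, fell from 78.9 to 18.9 CPM (-2.06), Abca9 fell less (-0.34), and Abca3 was at 0.15.

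Of 18 genes of lysosomal release and transfer tested (of 22), 7 were higher and 3 lower, with a median of 0.10. Tspo (1.15), a sterol-binding protein of the outer mitochondrial membrane, Osbpl8 (0.64) and Tmem97 (0.37), a regulator of NPC1, were higher. Stard3 (-0.43), which binds late endosomes to the endoplasmic reticulum, Osbpl11 (-0.27) and Osbp (-0.23) were lower. Tspo was at 386 CPM in Arpc4ΔCx3cr1 mouse 1 and at 135 to 180 CPM in the other 3, and its log2 fold change was 0.71 without that mouse.

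Among the 5 lists with more than 1 gene tested, esterification, storage and breakdown had the highest median, with 9 of 13 genes tested (of 17) higher, 1 lower and a median of 1.16. Ch25h, which makes 25-hydroxycholesterol, rose from 2.91 to 72.0 CPM (log2 fold change 4.66), the lipid chaperone Fabp5 from 6.24 to 73.8 CPM (3.60) and lipoprotein lipase, Lpl, from 29.3 to 224 CPM (2.94). All 4 Arpc4ΔCx3cr1 mice lay above all control mice for these 3 genes. The triglyceride lipase Pnpla2 fell by 0.31, and without the 2 clusters of mixed markers its log2 fold change was the same (-0.31) but no longer called. Subtracting 10% of outside RNA gave 12.3 for both Ch25h and Fabp5 and 10.2 for Apoc2, with little left in control mice.

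Of 14 nuclear receptors and partners of the sterol response tested (of 15), 6 were higher and 4 lower, with a median of 0.06. Rxrg (3.93), Srebf2 (1.33), the activator of cholesterol synthesis and uptake genes, and Insig1 (1.15), its retainer in the endoplasmic reticulum, were higher. Rxra (-0.81), Rxrb (-0.57) and Insig2 (-0.25) were lower, and Rxrb was at -0.36 without control mouse 3. Abca9 lost its call without control mouse 1, 2 or 3 (-0.35, -0.32 and -0.35) or Arpc4ΔCx3cr1 mouse 2 or 4 (-0.34 and -0.28) and without the 2 clusters of mixed markers (-0.36), and Tmem97 without control mouse 2 or 3 (0.29 and 0.36) or Arpc4ΔCx3cr1 mouse 4 (0.33). Abca3 lost its call under 18 of 22 alternatives, including the removal of each of the 8 mice, with values of 0.11 to 0.17.

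**Figure D5:**
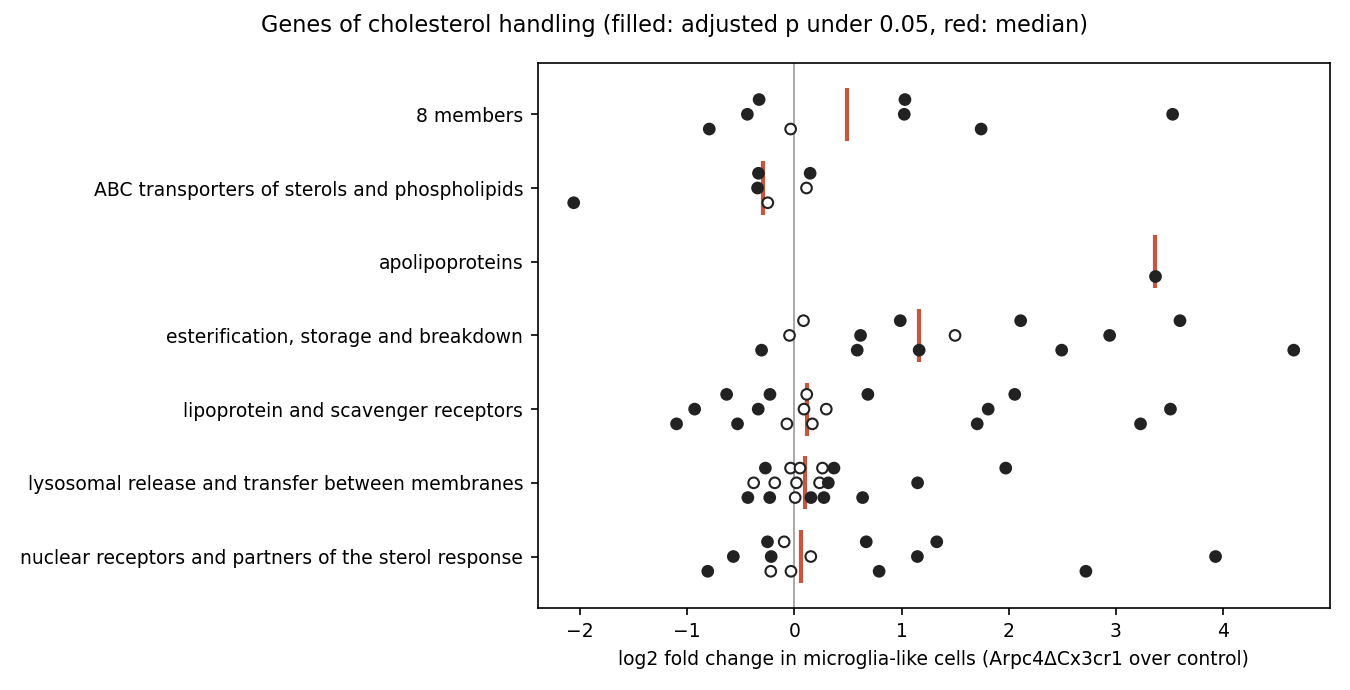
Each point is 1 tested gene, placed by its log2 fold change in microglia-like cells and filled where the adjusted p is under 0.05, grouped by the 8 members and the 6 lists, with the median of each in red. Esterification, storage and breakdown has its median at 1.16 and ABC transporters at -0.29.

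Markers of other cell types in the microglia-like sums were followed beside these results. For astrocytes, a main source of ApoE, the 7 markers summed to 207 to 255 CPM in control and 154 to 178 CPM in Arpc4ΔCx3cr1 mice, nearly all from Slc1a3 (229 and 154 CPM). Slc1a2, Gfap and Aldoc were called higher, each at 3.89 CPM or less on average in Arpc4ΔCx3cr1 mice, Slc1a3 was lower, Aqp4 was at 1.33 and 1.04 CPM, and no marker was at 0. The 8 CAM markers summed to 168 to 183 CPM and 66.8 to 156 CPM, mostly Stab1, the 1 of 5 tested that was called, lower. The 7 monocyte markers summed to 10.2 to 13.4 CPM in control mice, to 284 CPM in Arpc4ΔCx3cr1 mouse 1, mostly Fn1, and to 15.0 to 27.8 CPM in the other 3, with Fn1 higher and Ccr2 lower of 4 tested.

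The 5 endothelial markers summed to 28.2 to 29.4 and 58.4 to 111 CPM, with Flt1 higher, Pecam1 lower and Cldn5 at 0. The 6 B cell markers summed to 225 to 241 and 72.2 to 138 CPM, mostly Ighm, with Cd79b and Ighm lower. The 8 T cell markers summed to 67.1 to 78.3 and 10.6 to 42.7 CPM, mostly Il7r, the 1 tested, which was lower. The 7 dendritic cell markers summed to 5.49 to 8.75 and 16.9 to 21.1 CPM, with Zbtb46 higher and Ccr7 at 0, and the 6 natural killer cell markers to 0.52 to 1.43 and 2.61 to 4.29 CPM, with Klrb1c higher. Oligodendrocyte markers (52.0 to 59.9 CPM, with Mbp higher and Mag lower), granulocyte markers (78.1 to 91.8 CPM, none called of 4), markers of proliferating cells (20.4 to 27.2 CPM, Cdk1 and Cdca8 higher, Stmn1 lower) and neuron markers (1.03 to 3.44 CPM, Rbfox3 lower) kept similar sums in both genotypes. The part of these lists in the members' differences was not tested.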

How the data were processed

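Single-cell RNA was measured in CD45+ brain cells of 4 control and 4 Arpc4ΔCx3cr1 mice, in 1 pooled library. The counts are raw UMI counts that the authors deposited as Cell Ranger wrote them, with mm10 as the genome, as 1 matrix per mouse and 1 unfiltered matrix of the pool, and no normalization had been applied. The file headers and the labels name different versions of Cell Ranger, and the labels list 6.1.2.

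Barcodes were kept from 200 detected genes upward if mitochondrial UMIs made up no more than 20%, and clustered with Seurat 5.3.0 (R 4.3.3; 10000 variable genes, 20 components, 20 neighbours, resolution 0.8) and named by marker genes. Doublets were not called beyond the tags, which gave each cell barcode to 1 mouse, so doublets within a mouse may remain. Clusters of few UMIs were left unnamed, and those of monocytes and dendritic cells were joined. UMIs were summed per mouse and class. Genotypes were compared with edgeR 4.0.16 (low counts filtered, TMM scaling, quasi-likelihood test, Benjamini-Hochberg adjustment over all genes tested) in the 4 classes planned for it, each with at least 10 cells per mouse in at least 3 mice of each genotype. Proliferating cells also reached these numbers, but their comparison was not planned and was not run. CPM beside these tests are scaled by TMM, and CPM of classes, clusters and cell-poor barcodes by total gene UMIs. Shares of cells were taken after thinning each cell to 2000 UMIs and compared by exact permutation of mice. A planned adjustment of these p over the 8 members is not reported. Likeness over clusters is Pearson's r of log2 CPM, with 10 CPM added, among genes of at least 50 CPM on average. Tables and figures were made with Python 3.11.15, numpy 2.4.6, pandas 2.3.3, scipy 1.17.1 and matplotlib 3.10.9.

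Before the data were examined, the classes, tests, alternatives and the rule for named genes were written down: all members, Arpc4, Xist and Ddx3y, the marker genes, the 5 genes most like Apoe and Apoc1, and in each list up to 3 of the largest changes each way among called genes of at least 10 CPM on average. The members and lists were chosen with earlier results of these data known. Alternatives were DESeq2 1.42.0 (its scaling and its test), no filter, each mouse left out, a replicate block, stricter cells, no cells with the most UMIs, resolution 0.4, clustering without the listed genes, all cells, subtraction of outside RNA, a condition on fold, 20 cells per mouse, other thinning and other limits for cell-poor barcodes. Leaving out 2 clusters of mixed markers and adding the unnamed clusters were added after seeing the data. Gene UMIs per mouse ran from 5251527 to 12878691. Outside RNA was read from 1769098 barcodes of at most 100 UMIs with 6848195 UMIs, which sets the 95% interval of Apoe there at 16442 to 16635 CPM for counting error alone. The choice of barcodes moved it more, to 15616 CPM with at most 50 UMIs and 17597 CPM with 10 to 100.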

Additional observations from a re-analysis of the deposited data

Results flagged for a closer look

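In groups of 4 mice, the sample farthest out was compared with its distance to the next one in 136 groups, and 8 stood far from the others. Chance flags about 1 in 20 groups. In microglia-like cells 5 of the 8 belonged to Arpc4ΔCx3cr1 mouse 1. Apoe was at 31014 CPM there, against 11305 to 14480 CPM in the other Arpc4ΔCx3cr1 mice. Apoc2 was at 46.3 CPM, against 7.48 to 10.9, and Bcl3 at 25.5 CPM, against 8.29 to 9.36. Xist was at 1444 CPM, against 6.31 to 13.8, and Ddx3y at 3.80 CPM, against 69.3 to 81.3. Sex and other features of this mouse cannot be told apart. Among control mice, Bcl3 was at 4.61 CPM in mouse 3, against 3.43 to 3.57. In T cell-like cells Npc1 was at 116 CPM in Arpc4ΔCx3cr1 mouse 2, against 38.6 to 47.3, and Npc2 at 699 CPM in control mouse 1, against 379 to 419, both from few cells. Their causes were not tested.

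For 2 genes the genotype difference was larger in microglia-like than in CAM-like cells by an interaction test in edgeR with Benjamini-Hochberg adjustment. It was larger by 3.76 on the log2 scale for Apoe (adjusted p = 1.69e-06) and by 0.94 for Npc2 (adjusted p = 0.0052), and over 10 alternatives the adjusted p stayed at or below 0.0247 for Npc2.

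The pooled matrix held 7036 barcodes of at least 500 gene UMIs that were given to no mouse. Their genotype is not known. In them Apoe was at 10422 CPM, against 1149 to 1907 CPM in microglia-like cells of control mice. Npc2 was at 874 CPM, against 601 to 627, Soat1 at 160 CPM, against 102 to 110, and Apoc1 at 5.48 CPM, against 0.48 to 4.10. Each of the 4 lay between the means of the 2 genotypes.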

How the results depend on the processing

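In microglia-like cells, Apoe, Abcg1, Lrp1, Npc1, Npc2 and Soat1 kept their direction and their call in all 22 alternatives, over 2.64 to 7.93, -0.55 to -0.38, -0.86 to -0.73, -0.41 to -0.23, 0.94 to 1.19 and 0.98 to 1.11 on the log2 scale. In a replicate block, which pairs mice by number, Apoc1 was at 1.68 and no longer called, as at resolution 0.4 (1.42) and without the 2 clusters of mixed markers (1.25), an alternative added after seeing the data. With 1 mouse left out, Apoc1 ran from 1.39 to 2.48 and Abca1 from -0.071 to 0.016. A condition on fold left 1567 genes and 4 members. With 1 mouse left out, 5173 to 6371 genes and 6 or 7 members were called.

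At resolution 0.4, CAM-like cells gave 796 called genes, Apoe at 0.11, Lrp1 at -0.54 (called) and Soat1 at 0.56 (called), and the interaction gave 1034 genes and Npc1 at -0.66 (called). CAM-like cells then held 152 to 432 cells per Arpc4ΔCx3cr1 mouse, against 22 to 47, with Ms4a7 among the leading genes, so their makeup differed between genotypes. With 1 mouse left out, 10 to 64 genes were called in CAM-like cells, 107 to 244 in monocyte- and dendritic-like cells, 104 to 173 in T cell-like cells and 351 to 592 in the interaction. In monocyte- and dendritic-like cells Apoe then ran from 1.07 to 1.74, Npc2 from -0.85 to -0.50 and Soat1 from 0.78 to 1.05, and with at least 20 cells per mouse, which removed 1 mouse, Npc2 (-0.70) lost and Soat1 (1.05) gained a call. In T cell-like cells Apoe ran from 1.29 to 2.45 and Npc1 from -0.56 to 0.48. In the interaction Apoc1 ran from -0.19 to 1.42, Abca1 from 0.23 to 0.79, Abcg1 from -0.59 to 0.071 and Lrp1 from -0.14 to 0.29.

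Shares at 1000 UMIs differed by 0.30 points for Apoc1, -1.82 for Abca1 and -1.99 for Abcg1, and without thinning by -4.73 for Abcg1 and -5.00 for Npc1. Of these only Abca1 separated the genotypes, which it did not at 2000 UMIs. In all, 565 of 623 values of members and counts were taken as unchanged. For tested values this meant the same direction and side of the threshold. Counts of called genes or members had to stay within a ratio of 1.5. Shares with 1 mouse left out had to keep their direction and move by less than the SD between mice. The cause was not tested for any of these changes. Few UMIs limit Apoc1, and few cells limit all classes but microglia-like cells. All mice shared 1 library, so a second library was not there to repeat the result.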
